A study of Homo sapiens with 4 samples.

Results

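The genes described here encode the proteins of the mitochondrial ribosome. They were taken from the table of an ARIEL knockdown experiment as every row whose name starts with MRPL or MRPS followed by a digit, together with ICT1, a subunit of the same particle that carries an older name. The rule found 79 of the 22361 rows of the table. They hold 77 different names, since MRPL30 and MRPS17 each stand on 2 rows. By name, 49 rows belong to the large subunit, ICT1 included, and 30 to the small subunit. No row was a pseudogene. The family was picked with its difference between knockdown and control in view, so every difference below is a description of these libraries and none is a test of the family.

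The cells were Jurkat, an established human T-cell leukaemia line. Both groups received a lentivirus that expresses a short hairpin RNA: the control group carried 1 against GFP, labelled shGFP control, and the knockdown group carried 1 against ARIEL, labelled shARIEL. Both groups were kept in puromycin, at 0.7 µg/ml, for no less than 36 h, and RNA was taken 72 h after infection. Each group has 2 libraries, numbered 1 and 2 in the labels, read as 100-base pairs with strand kept. The labels do not say whether the libraries of a group came from separate cultures, so p-values here reflect only how much these libraries vary, which may be technical. With 1 hairpin per target, an effect of the hairpin and an effect of the loss of ARIEL cannot be told apart.

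Mitochondria translate their own few messenger RNAs, which encode core parts of the respiratory chain, on a ribosome that is distinct from the cytosolic one. All of its proteins are encoded in the nucleus, made in the cytosol and imported. Part of them descend from bacterial ribosomal proteins and the rest were added in the mitochondrial lineage. The small subunit decodes the messenger RNA and the large subunit joins amino acids and guides the new chain to the inner membrane.

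Promoter sequences are shown first because members on different chromosomes share letters around their start sites. RefSeq promoters of build GRCh38.p14 were matched to 69 of the 79 rows. The stretches below run from 90 bases before to the first 30 bases from the RefSeq start, 5′ to 3′ on the gene's strand, 120 bases in all. Capitals mark 3 kinds of letters searched on both strands: CCGGAAG, the core bound by ETS factors such as GABP; AAGATGGCG, the core bound by YY1; and the core GCATGCGC bound by NRF1, or the longer NRF1 palindrome that contains it. ICT1, MRPL40 and MRPS34 are shown because they had the largest differences among the matched members of their subunits, and each holds the ETS letters. MRPL38, MRPS10 and MRPL46 show the YY1 letters beside the start site. MRPL17 and MRPS14, with the most negative difference among the matched members of their subunits, hold neither of these, and MRPL17 holds the NRF1 letters.
ICT1, chr17:75012580-75012699, plus strand: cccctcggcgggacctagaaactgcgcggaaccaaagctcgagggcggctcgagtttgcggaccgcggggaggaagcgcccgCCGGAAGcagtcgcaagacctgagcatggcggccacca
MRPL40, chr22:19432455-19432574, plus strand: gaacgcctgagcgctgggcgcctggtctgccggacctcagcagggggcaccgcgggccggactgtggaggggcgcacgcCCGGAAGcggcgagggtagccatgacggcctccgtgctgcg
MRPS34, chr16:1773105-1773224, minus strand: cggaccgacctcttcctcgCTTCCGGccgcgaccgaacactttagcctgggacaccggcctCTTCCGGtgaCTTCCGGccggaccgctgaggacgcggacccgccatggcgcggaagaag
MRPL38, chr17:75904855-75904974, minus strand: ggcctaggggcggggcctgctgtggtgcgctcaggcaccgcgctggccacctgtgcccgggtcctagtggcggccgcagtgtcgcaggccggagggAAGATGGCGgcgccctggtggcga
MRPS10, chr6:42217832-42217951, minus strand: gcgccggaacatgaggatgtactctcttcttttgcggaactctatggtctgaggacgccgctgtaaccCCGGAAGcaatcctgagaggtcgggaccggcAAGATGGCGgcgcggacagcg
MRPL46, chr15:88467359-88467478, minus strand: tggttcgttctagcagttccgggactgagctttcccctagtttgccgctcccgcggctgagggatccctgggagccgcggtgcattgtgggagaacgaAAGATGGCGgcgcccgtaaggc
MRPL17, chr11:6683311-6683430, minus strand: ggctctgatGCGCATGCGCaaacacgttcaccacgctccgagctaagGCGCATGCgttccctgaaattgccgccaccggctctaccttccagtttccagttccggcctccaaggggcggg
MRPS14, chr1:175023396-175023515, minus strand: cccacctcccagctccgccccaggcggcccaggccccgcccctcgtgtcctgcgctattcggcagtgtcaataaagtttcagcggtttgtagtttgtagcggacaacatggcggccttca

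Over the 300 bases from 250 before to 50 after the start, the ETS letters occurred in 29 of 69 members, 42.0%, against 19.2% of the 10396 promoters of tested protein-coding genes and 10.7% of all 27305 promoters in the table. The YY1 letters occurred in 13 of 69 members, 18.8%, against 3.97% and 1.85%. Of the 14 YY1 matches in members, 10 began at or after the start site, and of the 39 ETS matches 27 lay within the 100 bases before it. The subunits were alike in both: the ETS letters stood in 41.5% of large and 42.9% of small subunit promoters, and the YY1 letters in 19.5% and 17.9%.

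The other letters stood closer to the share of the tested protein-coding promoters, or below it. The NRF1 core GCATGCGC stood in 6 of 69 members, 8.70%, against 5.63%, and the E-box CACGTG that MYC and its partners can bind stood in 10.1% against 10.2%. CAGATG, an E-box of the kind TAL1 complexes bind, stood in 1 of 69 members, 1.45%, against 9.57%. TATAAA stood in 4.35% against 5.76%, CCAAT in 29% against 37.2%, and GGGCGG, the SP1 core, in 62.3% against 69.2%. Some of these searches overlap, since the NRF1 palindrome contains the NRF1 core. Median GC content of the promoters was 60.3% in members and 65% in tested protein-coding genes. A match is a run of letters and not a measured binding site.

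Members with the ETS letters differed little from the other members in their response. Their median difference between knockdown and control was 0.13, with 21 of 29 called higher, and that of the other matched members was 0.11, with 26 of 40. Members with the YY1 letters had a median of 0.15, with 10 of 13 called higher, against 0.11 and 37 of 56 without. Of all tested genes 22.1% were called higher. These differences are on the rlog scale, the log2-like scale of the deposited values, which is explained next together with the rule for a call.

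The table gives an rlog value per gene and library, a log2 expression level that draws low or variable genes toward their mean. A difference of rlog means therefore understates the fold change: across the 78 tested members the rlog difference rose by 0.54 for each unit of the log2 fold change in the authors' deposited table. The 14601 rows whose mean rlog reached log2 of 10 were tested, and a gene was called where the limma test gave a Benjamini-Hochberg adjusted p under 0.05. The counts behind the values were not used here, so depth is unknown. The targeted transcript, taken from background knowledge to be the row XLOC_005968, read 12.02 and 11.91 in control and 10.58 and 10.55 in knockdown libraries, a difference of -1.40 ± 0.04 (SE). T-lineage markers were present, with CD3D at 15.42 and 15.44 in control and 15.43 and 15.44 in knockdown libraries, and all 10 listed markers passed the level filter. Of 16 markers of other cell types 4 passed it, CD79A, COL1A1, KRT8 and CD14, of which CD79A and KRT8 were called higher, COL1A1 lower and CD14 neither. The group means were 10.95 and 11.24 for CD79A and 4.66 and 4.73 for KRT8, and COL1A1 differed by -0.18. Of the T-lineage markers 1 was called higher and 5 lower, beside 22.1% and 22.4% of all tested genes. CD7 was higher, with a difference of 0.23. Lower were TRAT1 at -0.73, CD3G at -0.30, CD28 at -0.26, TAL1 at -0.23 and CD2 at -0.15. The part of these markers in the members' differences was not tested. The markers MS4A1, CSF1R, HBA1, DCN and EPCAM were listed at 0.

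Of the 78 members that passed the level filter, 52 were higher in the knockdown, 1 was lower and 25 were not called. In all 14601 tested genes 44.4% were called, 22.1% higher and 22.4% lower. The median difference of the members was 0.12, with quartiles of 0.05 and 0.16, and that of all tested genes was 0.00. Differences were above 0 in 70 of 78 members. The levels of the 2 knockdown libraries lay entirely above those of the 2 control libraries in 61 members and entirely below in 3, and overlapped in 14. Over all tested genes 35.6% lay entirely above and 35.1% entirely below. The authors' deposited table gave 51 members higher and 1 lower at its adjusted p under 0.05, beside 20.1% and 19.3% of its 14551 genes, with a median fold change of 1.16. Fitted with each gene's own variance, limma called 0 members and 0 of all tested genes, while 39 of 78 members and 4561 of 14601 genes had an unadjusted p under 0.05, so the calls rest on a spread shared between genes. Protein-coding genes within the central range of the members' levels, 4664 in all, were called higher in 28.6% and lower in 25.7%. These are bulk libraries, in which fewer cells of a kind and less RNA per cell cannot be told apart.

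The differences were small for nearly every member. Of the 52 called higher, 42 differed by less than 0.20 on the rlog scale, and 2 members of the authors' deposited table reached a fold change of 1.5, ICT1 and MRPL2. The standard errors were close to each other, with a median of 0.03 and a range of 0.02 to 0.05.

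**Figure D1:**
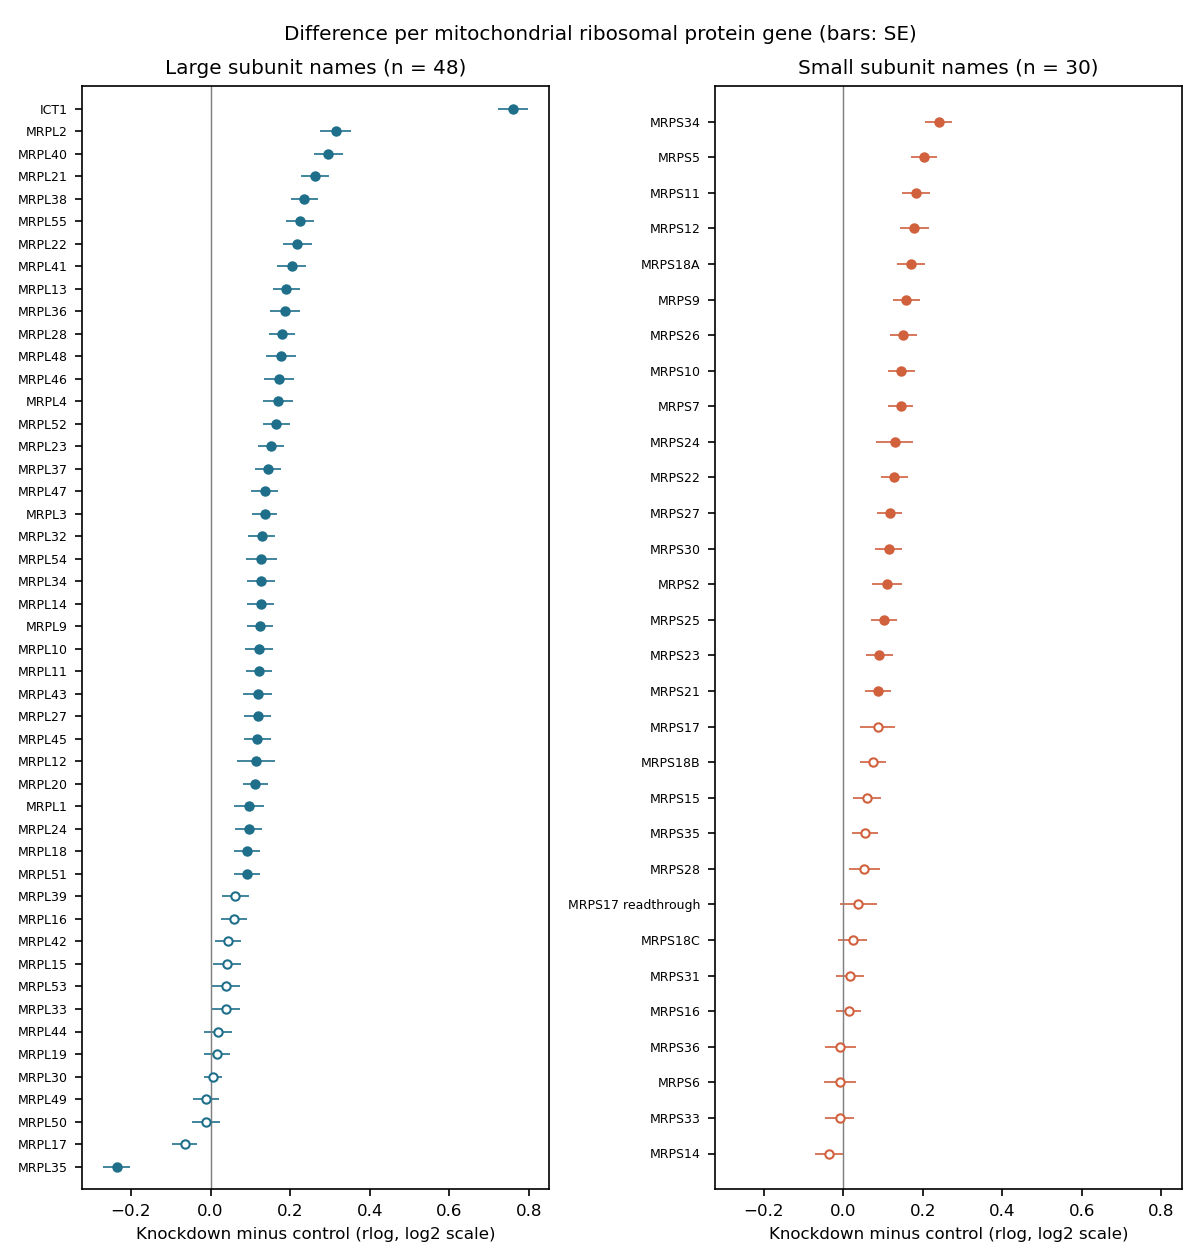
Difference between knockdown and control in rlog units (horizontal axis) for the 48 tested large subunit genes and the 30 small subunit genes, with bars for the SE from limma. Filled points were called and open points were not: ICT1 at 0.76 stands far to the right of the other members, and MRPL35 at -0.24 is the only member called lower.

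ICT1 encodes a peptidyl-tRNA hydrolase built into the large subunit, which can release chains from stalled mitochondrial ribosomes. Its gene, now named MRPL58, lies on chromosome 17. Control libraries 1 and 2 gave 11.51 and 11.52, and knockdown libraries 1 and 2 gave 12.25 and 12.30. Both knockdown libraries lay above both controls by many times the gap between libraries of a group. The difference of 0.76 ± 0.04 (SE, n = 2 and 2) was the fourth largest rise among all 14601 tested genes. In the authors' deposited table this is a log2 fold change of 1.42 ± 0.07 (SE), or 2.68-fold. The next largest difference in the family was 0.32.

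Among the other large subunit genes the highest differences belonged to a mixture of proteins from the core and the surface of the subunit. MRPL2, on chromosome 6, is the counterpart of a bacterial protein beside the peptidyl transferase centre. Its level was 11.47 and 11.46 in control and 11.77 and 11.78 in knockdown libraries, a difference of 0.32 ± 0.04 and 1.51-fold in the authors' deposited table. MRPL40, on chromosome 22, is specific to the mitochondrial particle and lies in the region lost in 22q11 deletions. It stood at 11.99 and 11.97 in control and at 12.25 and 12.30 in knockdown libraries, a difference of 0.30 ± 0.04. MRPL21, on chromosome 11, has a bacterial counterpart, and stood at 12.63 and 12.65 in control and at 12.86 and 12.95 in knockdown libraries, a difference of 0.26 ± 0.03. In these 3 genes the groups were separate, and the larger spread was among the knockdown libraries of MRPL21.

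MRPL38 on chromosome 17, a surface protein of the mitochondrial particle, stood at 12.72 and 12.76 in control and at 12.94 and 13.01 in knockdown libraries, a difference of 0.24 ± 0.03. MRPL55 on chromosome 1, which has a bacterial counterpart, stood at 12.16 and 12.20 against 12.38 and 12.44, a difference of 0.23 ± 0.04. MRPL22, on chromosome 5, belongs to the proteins that line the tunnel through which the new chain leaves. It stood at 12.01 and 11.96 against 12.18 and 12.22, a difference of 0.22 ± 0.04. In all 3 the groups did not overlap. MRPL41 was the remaining large subunit gene at 0.20 or above, with a difference of 0.20 ± 0.04.

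The remaining 27 large subunit genes called higher ranged from 0.09 to 0.19, and some of them are given here by their place in the particle, chosen after their values were seen. The stalk that recruits translation factors is formed by MRPL10 and MRPL12 on the base MRPL11, and their differences were 0.12 ± 0.04, 0.11 ± 0.05 and 0.12 ± 0.03. With the trend with GC content and length removed MRPL10 and MRPL11 came to 0.10 each, and MRPL12 to 0.01, where it was not called. MRPL23 sits at the mouth of the exit tunnel, and MRPL45 contacts the inner membrane there, with differences of 0.15 ± 0.03 and 0.12 ± 0.03. MRPL3, which reaches into the catalytic core, differed by 0.14 ± 0.03.

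MRPL35 on chromosome 2, the counterpart of a bacterial protein of the large subunit, was the one member lower in the knockdown. Its level was 13.10 and 13.03 in control and 12.84 and 12.82 in knockdown libraries, a difference of -0.24 ± 0.03 and 1.35-fold lower in the authors' deposited table. MRPL17 on chromosome 11 was also separate and lower, at 13.65 and 13.63 in control and 13.58 and 13.57 in knockdown libraries, but its difference of -0.07 ± 0.03 was not called. MRPL50, MRPL49, MRPL30 and MRPL19 complete the low end, with differences of -0.01, -0.01, 0.01 and 0.02, none called, and their groups overlapped. With the trend with GC content and length removed MRPL50 and MRPL19 came to 0.10 and 0.09, both called higher. MRPL49 at -0.05 and MRPL30 at 0.03 were not called there.

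**Figure D2:**
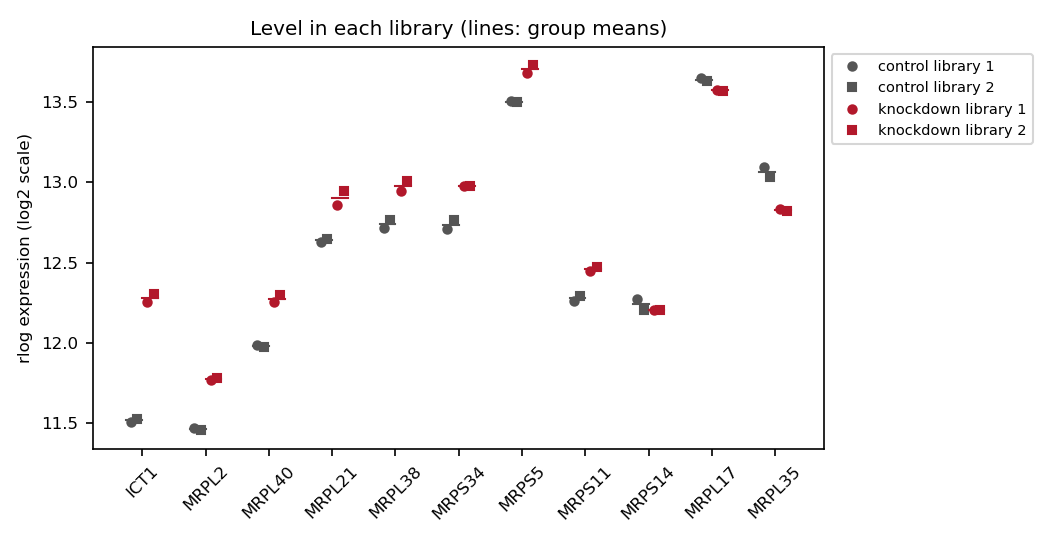
The rlog level (vertical axis) in each of the 4 libraries for 11 members named in the text, with control libraries in grey, knockdown libraries in red, and lines for the group means. ICT1 shows the widest gap between groups, MRPL17 and MRPL35 are lower in both knockdown libraries, and in MRPS14 the groups nearly touch.

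In the small subunit 17 of 30 genes were called higher and none lower, beside 22.1% and 22.4% of all tested genes. MRPS34 on chromosome 16, a protein specific to the mitochondrial particle, led with 12.71 and 12.77 in control and 12.98 and 12.98 in knockdown libraries, a difference of 0.24 ± 0.03 and 1.35-fold in the authors' deposited table. MRPS5 on chromosome 2, the counterpart of a bacterial protein near the entry of the messenger RNA, stood at 13.51 and 13.50 against 13.68 and 13.73, a difference of 0.20 ± 0.03. MRPS11 on chromosome 15, from the platform of the subunit, stood at 12.26 and 12.29 against 12.45 and 12.47, a difference of 0.18 ± 0.04. None of these 3 had overlapping groups. MRPS12 on chromosome 19, the counterpart of the bacterial decoding-centre protein in which streptomycin resistance arises, stood at 11.97 and 11.94 against 12.14 and 12.13, a difference of 0.18 ± 0.04. MRPS9 on chromosome 2 stood at 13.06 and 12.96 against 13.17 and 13.17, a difference of 0.16 ± 0.03. The 2 control libraries of MRPS9 differed from each other by more than those of the other small subunit genes named above.

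At the low end of the small subunit no gene was called. MRPS14 on chromosome 1 had the most negative difference, with 12.27 and 12.21 in control and 12.21 and 12.20 in knockdown libraries, -0.04 ± 0.04. MRPS33, MRPS6 and MRPS36 had differences of -0.01 each, MRPS16 of 0.01 and MRPS31 of 0.02, and in these 5 genes the groups overlapped. MRPS36 is now counted as a subunit of the 2-oxoglutarate dehydrogenase complex and not of the ribosome.

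The MRPS18 family shows members of a single name that sit in different places. MRPS18A is found in the large subunit in spite of its name, whereas MRPS18B and MRPS18C occupy separate sites in the small one. MRPS18A stood at 12.58 and 12.62 in control and 12.75 and 12.79 in knockdown libraries, and rose by 0.17 ± 0.03. MRPS18B differed by 0.07 ± 0.03 and MRPS18C by 0.02 ± 0.04, and neither was called in limma on the deposited values. In the authors' deposited table MRPS18A and MRPS18B were called and MRPS18C was not. With the trend with GC content and length removed MRPS18A, MRPS18B and MRPS18C came to 0.10, 0.03 and 0.07. There MRPS18A and MRPS18C were called and MRPS18B was not. The difference between the 3 paralogues was not tested. MRPS30, likewise a large subunit protein under a small subunit name, rose by 0.11 ± 0.03.

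The call threshold ran through a dense range of values. MRPL12 and MRPL1 lay just inside it, with adjusted p of 0.0416 and 0.0232 in limma, and MRPS18B and MRPL17 just outside it, with 0.0503 and 0.0886. Of the 25 members not called, 11 had groups that did not overlap. Over all tested genes, called or not, 35.6% lay entirely above and 35.1% entirely below. The share among all genes not called was not computed.

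Compared by name, the large subunit had 35 of 48 tested genes called higher, 72.9%, and the small subunit 17 of 30, 56.7%. Of all tested genes 22.1% were called higher, which is the share to set beside each count in this paragraph from the same fit. The median differences were 0.12 for the large subunit, with quartiles of 0.06 and 0.17, and 0.10 for the small subunit, with quartiles of 0.04 and 0.15. The medians thus lay within each other's quartiles. Without ICT1 the large subunit median was 0.12 as well. Without knockdown library 2 the counts called higher were 27 in the large and 11 in the small subunit. In the authors' deposited table the median fold changes were 1.17 and 1.13. With MRPS18A and MRPS30 placed in the large subunit and MRPS36 in neither, 37 of 50 large and 15 of 27 small subunit genes were called higher, with medians of 0.12 and 0.09. Proteins with a bacterial counterpart and those specific to mitochondria had like medians in this placement. They were 0.12 and 0.12 in the large subunit, with 23 of 30 and 14 of 20 called higher, and 0.09 and 0.10 in the small subunit, with 9 of 17 and 6 of 10. No test was made between the subunits, because genes are not replicates and the family was chosen on this contrast.

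The transcripts of the subunits differ in base composition and length. Median GC content was 51.8% in large and 47.3% in small subunit transcripts, beside 49.3% in all tested genes with a value. Median transcript length was 1370 bases in the large and 1643 in the small subunit, beside 3355 in all tested genes with a value. After removal of each library's trend with GC content and transcript length, fitted over 12591 genes, the medians were 0.08 in the large and 0.08 in the small subunit. In that fit 34 of 47 large and 16 of 29 small subunit genes were called higher, and 2 large subunit genes lower, MRPL35 and MRPL17, while over all genes 29.1% were called higher and 24.2% lower. These values are by name. By place in the particle the medians of the large and small subunit in that fit were 0.09 and 0.08. There 36 of 49 and 14 of 26 genes were called higher. ICT1 kept a difference of 0.72, MRPL2 of 0.26 and MRPL40 of 0.22, MRPS34 came to 0.13, and MRPL35 to -0.17. Of the 52 genes called higher, 50 have both properties and 43 of them were called higher again. The 7 that were not are MRPL41 at 0.06, MRPL12 at 0.01, MRPL24, MRPL54, MRPS2, MRPS24 and MRPS26. Genes called higher with the trend removed but not before were MRPL42 at 0.13, MRPL50 at 0.10, MRPL19 at 0.09, MRPS35, MRPS18C, MRPL39 and MRPS17. The parts of GC content and length were not separated.

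**Figure D3:**
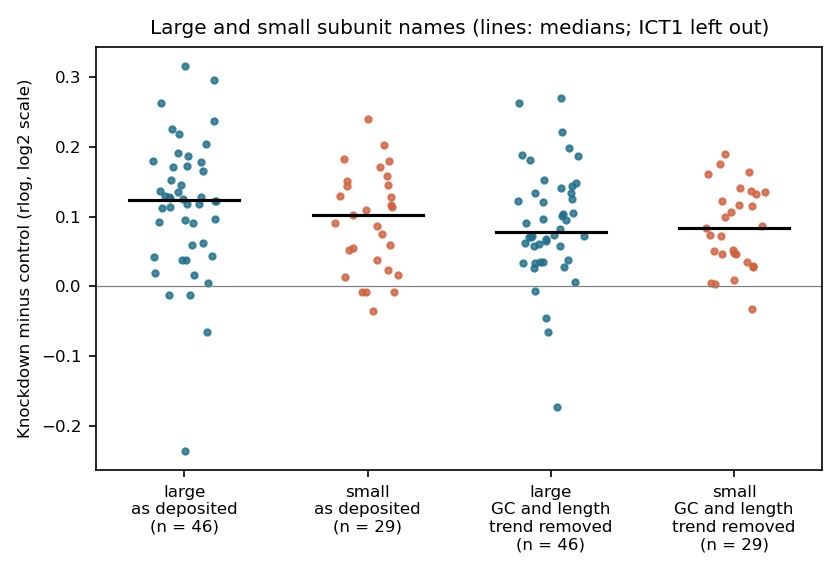
Difference between knockdown and control (vertical axis, rlog units) for each large and small subunit gene, from the deposited values and after removal of the trend with GC content and length, with lines for the medians and ICT1 left out of the plot. Subunits are by name. The small gap between the medians on the left is absent on the right, where both are at 0.08. By place in the particle, with ICT1 included, the medians with the trend removed were 0.09 in the large and 0.08 in the small subunit.

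Within the family the difference followed GC content. The 26 members of lowest GC content, from 35% to 45.6%, had a median difference of 0.05 with 11 called higher. The 25 in the middle had a median of 0.10 with 15 called higher, and the 25 of highest GC content, from 53.0% to 71.9%, had a median of 0.15 with 24 called higher. All tested genes of the same 3 ranges had medians of -0.05, 0.01 and 0.05, and 10.6%, 23.1% and 38.1% of them were called higher. The members' medians were thus about 0.10 above those of all tested genes in each range. The ranges match GC content and not transcript length. With the trends with both removed, the median was 0.08 over members and 0.01 over all tested genes. Spearman's rho between GC content and difference was 0.55 across 76 members and 0.41 across 12591 tested genes, a description across genes that share the same 4 libraries.

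**Figure D4:**
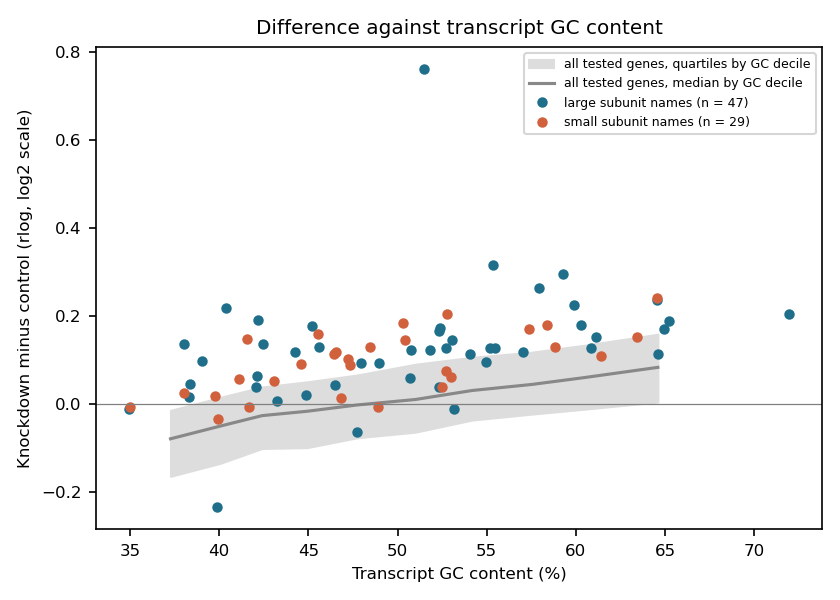
Difference between knockdown and control (vertical axis, rlog units) against transcript GC content in percent (horizontal axis) for 47 large and 29 small subunit genes, over the median and quartiles of all tested genes in 10 bins of GC content. Both the members and the grey line climb from left to right, and 72 of the 76 members lie above the line. The line is not matched for transcript length.

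A like relation with GC content existed between libraries of the same group. Across the 76 members the difference between control libraries 2 and 1 had a rho of 0.67 with GC content, and across all tested genes 0.59. For knockdown libraries 2 and 1 the values were 0.37 and 0.41. The part of this trend in the members' differences was measured only through the fit with the trend removed, given above. The family also moved as a group between the controls: control library 2 was below control library 1 in 57 of 78 members, with a median gap of -0.04, against 0.00 over all tested genes. Expressed as the deviation from each gene's mean, the members' medians were -0.04 and -0.07 in control libraries 1 and 2 and 0.05 and 0.06 in knockdown libraries 1 and 2. By subunit they were -0.04, -0.08, 0.06 and 0.07 for the large, and -0.03, -0.06, 0.04 and 0.05 for the small. The difference between groups exceeded the gaps inside both groups in 59 of 78 members, and in 8949 of 14601 tested genes.

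Most members were expressed at similar levels: 73 of the 78 tested members had a mean rlog between 11 and 15. In the large subunit MRPL3, MRPL11 and MRPL51 had the highest mean rlog, 14.51, 13.91 and 13.72, and in the small subunit MRPS27, a pentatricopeptide repeat protein, MRPS16 and MRPS5, at 14.41, 14.23 and 13.60. Levels of different genes can be compared only per length. After subtraction of the log2 of transcript length in kilobases, MRPL3 stood at 13.74, MRPL23 at 13.70 and MRPL20 at 13.52, and the median member at 12.03. The median of all tested genes was 9.86 on that scale, and that of 87 cytosolic ribosomal protein genes 15.86. The lowest large subunit genes by mean rlog were MRPL54 at 11.57, MRPL12 at 9.67 and MRPL30 at 3.94. In the small subunit they were MRPS17 at 10.59, MRPS24 at 10.22 and a second row named MRPS17 at 7.71. Per length MRPL54, with a transcript of 626 bases, stood at 12.25 and so above the median member.

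Several of these low rows, though not MRPL54, overlap other genes on the same strand, as do rows of high level such as MRPS16. The part of counting in their levels was not tested. The second row named MRPL30 stood at 2.15 to 2.16 in every library and was not tested, and the second row named MRPS17 stood at 7.65 to 7.77 and was not called. Both are read-through transcripts in GENCODE that run across the gene of that name, so that reads cannot be fully assigned to either. In all, 19 of the 79 rows overlap another annotated gene on their own strand and 35 on the opposite strand. MRPL12, MRPL38, MRPS5 and MRPS24 are among the first, MRPS24 through the read-through gene URGCP-MRPS24. MRPL2 overlaps KLC4, and MRPL40 overlaps HIRA, on the opposite strand, and the strand setting of the counting is not given in the sources used here.

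Some members start beside another gene. Of 69 members 17, or 24.6%, had the start of a protein-coding gene on the other strand within 1000 bases, against 14.3% of tested protein-coding genes. Of the 17 partners 6 were called higher, 4 lower and 7 neither, with a median difference of 0.04. Outside the family, with MRPL46 and MRPS11 left out, 4 of 15 partners were called higher and 4 lower, beside 22.1% and 22.4% of all tested genes. MRPL46 and MRPS11 face each other at 320 bases, and rose by 0.17 and 0.18. MRPS12 and SARS2, the mitochondrial seryl-tRNA synthetase, start 181 bases apart and rose by 0.18 and 0.12. SARS2 was not called in the authors' deposited table. With the trend with GC content and length removed MRPS12 came to 0.11, still called, and SARS2 to 0.05, not called. The 2 genes also overlap on opposite strands in GENCODE. MRPS2 and C9orf116 rose by 0.11 and 0.27, and MRPL18 and TCP1 by 0.09 and 0.10. MRPS2 came to 0.03 with the trend removed and was not called there. Trend-removed differences of partners outside the family other than SARS2 are not given here.

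Other pairs went apart. MRPL40 rose by 0.30 and its neighbour HIRA, a histone chaperone, fell by 0.11. MRPL37 rose by 0.15 where CYB5RL fell by 0.14, and MRPL27 rose by 0.12 where EME1, a subunit of a DNA repair nuclease, fell by 0.11. FAU, a cytosolic ribosomal protein gene that begins 49 bases from MRPL49, rose by 0.12, whereas MRPL49 was at -0.01 and not called.

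Genes that serve the same ribosome were followed in lists, which like the members were drawn up with results of these data known. Of 6 subunits whose symbols lie outside the name rule 3 rose, where 22.1% of all tested genes were called higher. Those 3 were GADD45GIP1 by 0.19 ± 0.04, AURKAIP1 by 0.16 ± 0.03 and DAP3, a GTP-binding protein of the small subunit, by 0.11 ± 0.03. MRP63 at 0.07, PTCD3 at 0.02 and CHCHD1 at -0.03 were not called. With the trend with GC content and length removed 4 of the 6 were called higher. There MRP63 at 0.07 and PTCD3 at 0.08 were called, and AURKAIP1 at 0.04 was not. Of 19 translation factors 8 rose and 1 fell, with a median of 0.07, beside 22.1% and 22.4% of all tested genes. With the trend with GC content and length removed 13 were called higher and 0 lower, with a median of 0.10. Over all genes in that fit 29.1% were called higher and 24.2% lower. The elongation factor TUFM went from 15.12 and 15.11 to 15.38 and 15.43, a rise of 0.29 ± 0.03, and its exchange factor TSFM rose by 0.20 ± 0.04. The translational activator TACO1 rose by 0.19 and the release factor homologue C12orf65 by 0.17, while the release factor MTRF1 fell by 0.09. Its call was lost with the trend removed, where it came to -0.04, and was not made in the authors' deposited table.

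Of 31 assembly and rRNA modification factors 15 rose and 5 fell, with a median of 0.08, beside 22.1% and 22.4% of all tested genes. With the trend with GC content and length removed 11 of 29 were called higher and 5 lower, beside 29.1% and 24.2% of all genes. The risers with the largest change were the rRNA methyltransferase MRM1 with 0.19, METTL17 with 0.19, C1QBP with 0.17 and the pseudouridine synthase TRUB2 with 0.15. FASTKD2, an RNA-binding protein of mitochondrial RNA granules, fell by 0.25 ± 0.03 and YBEY, an endoribonuclease, by 0.21 ± 0.05. TFB1M, the dimethyltransferase of the small subunit rRNA, fell by 0.20 ± 0.04, MTERFD2 fell by 0.16 and MALSU1, which binds the maturing large subunit, fell by 0.14. Of 20 mitochondrial aminoacyl-tRNA synthetase genes 10 rose and 2 fell, with a median of 0.07, beside the same 22.1% and 22.4% of all tested genes. TARS2 rose by 0.24 and CARS2 by 0.17, VARS2 by 0.14 and PET112 by 0.12, whereas LARS2 fell by 0.29 ± 0.03 and GATC by 0.16.

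The list of mitochondrial transcription genes and nuclear regulators had 4 of 17 tested genes higher and 5 lower, with a median of -0.02, near the 22.1% and 22.4% of all tested genes. TFAM, which packages mitochondrial DNA, stood at 13.87 and 13.79 in control and at 13.48 and 13.41 in knockdown libraries, and fell by 0.39 ± 0.03. The mitochondrial RNA polymerase POLRMT rose by 0.19 ± 0.03, ESRRA by 0.21, CLUH by 0.19 and MYC by 0.14, whereas MYCN, another MYC family factor, fell by 0.23 ± 0.04.

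Several factors whose letters were searched in the promoters were also in this list. YY1 fell by 0.12 ± 0.03, GABPA, the DNA-binding subunit of GABP, by 0.10 ± 0.03 and GABPB2 by 0.14 ± 0.03. GABPB1 at -0.02 ± 0.04 and NRF1 at -0.02 ± 0.04 were not called. With the trend with GC content and length removed GABPA came to 0.01 and GABPB1 to 0.06, neither called. YY1 and GABPB2 came to -0.08 each and were still called lower. Transcripts of the mitochondrial genome were not analysed here.

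**Figure D5:**
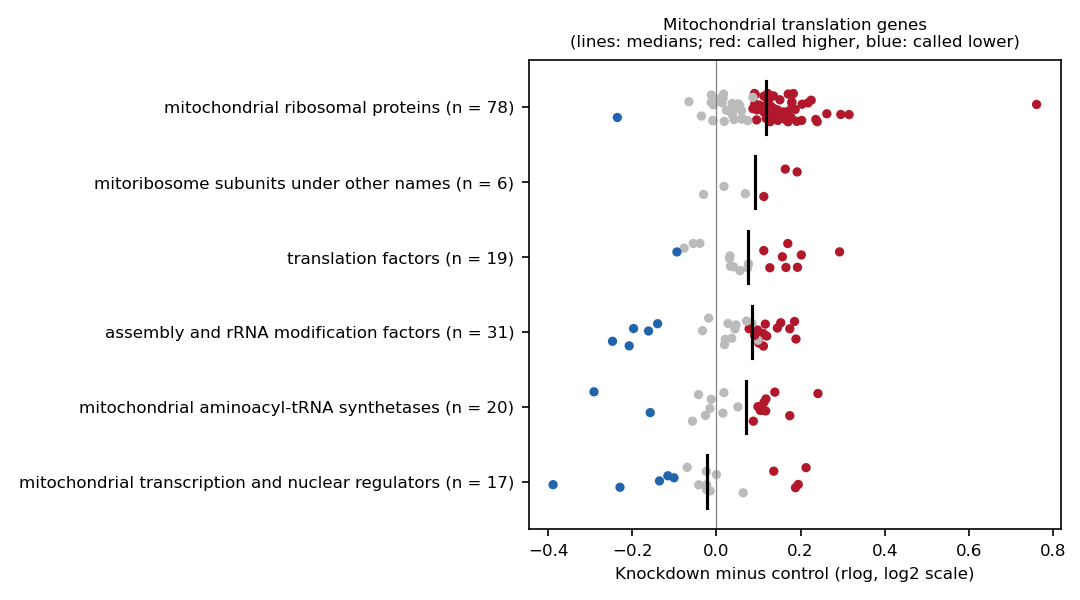
Difference between knockdown and control (horizontal axis, rlog units) for the 78 members and for 5 lists of genes that serve mitochondrial translation, with lines for the medians, red for genes called higher and blue for genes called lower. The members' median of 0.12 is the rightmost line, and the regulators' median of -0.02 lies left of 0.

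The cytosolic ribosomal protein genes gave the nearest comparison. Of 87 tested 57 were called higher, 65.5%, and 3 lower, with a median difference of 0.10, against 66.7% and 0.12 for the mitochondrial family. With the trend with GC content and length removed their medians were 0.07 and 0.08. The difference between the families was not tested.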

How the data were processed

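RNA-seq of Jurkat cells was taken from 4 libraries, 2 shGFP control and 2 shARIEL, grouped by the sample titles. Build hg19 and the tools DESeq2 1.12.4, HTSeq 0.6.1 and STAR 2.5.2a come from the submitters' processing notes, where no role is stated. The deposited table holds, per the file headers, an rlog value for every gene in every library, which is a log2 expression value. It also holds the authors' own comparison: their log2 fold change and its standard error, the score of their test, and p-values before and after adjustment. The table holds 0 value columns that belong to no library of the series. Depth cannot be known from rlog values, and intervals for counting error are therefore left out. The spike-in RNA added by cell number was not analysed here.

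As the values are already logarithms, no pseudocount was used: limma 3.58.1 in R 4.3.3 (lmFit, then eBayes with a trend on level) was run on the deposited values, over 14601 genes whose mean rlog reached log2 of 10, at a Benjamini-Hochberg adjusted p of 0.05. The prior degrees of freedom came out infinite, so genes of a level share 1 spread. The code was tested on simulated data. Transcript GC content, length, gene class and overlaps came from GENCODE 29 by gene ID and promoters from RefSeq by symbol. Tables and plots were made with Python 3.11.15, pandas 2.3.3 and matplotlib 3.10.9.

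The members, lists and alternatives were chosen with earlier results of these data known. Genes were named by rule: ICT1, the 6 highest and 6 lowest differences and the 3 highest and 3 lowest levels in each subunit, lettered paralogues, subunits under other names, the 2 members on either side of the call threshold, and up to 4 called genes per list and direction. Beyond that rule MALSU1, all called T-lineage markers and the factors whose letters were searched were named. Genes named for their place in the particle, for a promoter match, for a facing start site or for an overlap were chosen after their values were seen. Alternatives were each gene's own variance, no trend on level, 2 other filters, 2 scalings, removal of the trend with GC content and length by splines, a replicate block, the authors' test, placement of subunits in the particle, and leaving out each library.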

Additional observations from a re-analysis of the deposited data

How the results depend on the processing

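With each gene's own variance and 2 residual degrees of freedom, limma called 0 large and 0 small subunit genes higher, 0 large subunit genes lower, 0 of all tested genes higher or lower and 0 genes of the translation and assembly factor lists (29 in the report). At an unadjusted p under 0.05 it gave 39 of 78 members and 4561 of 14601 genes, and its adjusted p for ICT1 was 0.0791 at a difference of 0.76. The smallest adjusted p among members was 0.0748, so every call rests on the spread shared between genes. With the trend with GC content and length removed, with or without the replicate block, the large and small subunit medians were 0.0816 and 0.0831, and 2 large subunit genes were called lower. The authors' deposited test gave medians of 0.23 and 0.18 on the log2 scale of its own fold changes. The replicate block alone left ICT1 at 0.76 and the medians at 0.12 and 0.10, called 37 large and 19 small subunit genes higher, 2 large lower, and 3722 of all tested genes higher. Same-numbered libraries deviated together with r of 0.198, and -0.0033 once the GC and length trend was removed, and the labels do not say what a number marks. Leaving out each library in turn gave 27 to 34 large and 11 to 16 small subunit genes called higher, 1 large and 0 small lower, 2004 to 3061 of all tested genes higher and 2221 to 3127 lower, 18 to 27 list genes called, medians of 0.11 to 0.14 and 0.09 to 0.10, and 0.73 to 0.79 for ICT1. The lowest count in each case came without knockdown library 2, where 38 of the 52 members called higher kept that call; the cause was not tested. Of those 52, 34 kept the call in all 4 such fits.

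Differences that changed sign belong to genes not called in the report. Leaving out each library in turn gave -0.009 to 0.0927 for MRPL15, -0.0074 to 0.083 for MRPL33, -0.0085 to 0.0401 for MRPL19, -0.0124 to 0.0236 for MRPL30, -0.0418 to 0.0179 for MRPL49, -0.0313 to 0.0067 for MRPL50, -0.0028 to 0.0793 for the MRPS17 readthrough row, -0.0108 to 0.0587 for MRPS18C, -0.0257 to 0.0596 for MRPS31, -0.0078 to 0.0354 for MRPS16, -0.0256 to 0.0107 for MRPS36, -0.0428 to 0.0265 for MRPS6 and -0.0382 to 0.0213 for MRPS33. With the GC and length trend removed, with or without the replicate block, MRPL53 came to -0.006, MRPL50 to 0.1007, MRPS36 to 0.0724, MRPS33 to 0.0469 and MRPS14 to 0.0048.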
